A study of Mus musculus with 9 samples.

Results

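The authors deposited a comparison of gene expression between 2 arms abbreviated PT and PUT, and the 12170 genes described here are those with a baseMean of at least 100, of 27775 genes in that table. The baseMean is the mean normalised count over all libraries of the comparison. Uhrf1 had the negative fold change in the table, so the arms are called the Uhrf1-low arm and the other arm, and each fold change is the log2 ratio of the first over the second. The study took satellite cells, which regenerate skeletal muscle, from hindlimbs of mice aged 9 weeks and made 3 libraries for each of 3 groups. Control mice received oil. Mutant mice, Uhrf1-deficient in satellite cells, received tamoxifen (150 µl of 20 mg/ml, intraperitoneally, for 5 days). Cre Control mice also received tamoxifen. Cells of the Control and Mutant groups spent 3 days in culture after plating at 5000 cells/cm2, and ribosomal RNA was removed before stranded libraries were made. The culture and library protocol of the Cre Control cells, the promoter that drives the Cre, and the alleles are not given in the sources used here. They do not state which of the 3 groups are PT and PUT, nor the number of libraries in each arm. The labels do not say whether each library is a separate animal, so p-values here reflect spread that may be technical.

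Uhrf1 binds hemimethylated CpG sites and modified histone H3 behind the replication fork and brings the maintenance methyltransferase Dnmt1 to newly made DNA. Cells that lose it lose DNA methylation as they divide, and they often slow their cell cycle. Satellite cells activated in culture divide as myoblasts before they leave the cycle and fuse, so genes of replication, mitosis, ribosome production and muscle differentiation are the programmes usually followed in them. Members of the E2F family drive many genes of DNA replication, and genes of mitosis often carry a CHR element, at which the DREAM complex represses them in resting cells, together with CCAAT boxes, the sites of NF-Y.

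Short promoter stretches of 7 cell cycle genes are shown because replication and mitosis are the programmes that the results below return to, and because these members did not all move one way. The sequences come from the RefSeq promoters of GRCm38.p6, on the gene's own strand, and end before the transcription start. Each is the stretch around the match nearest the start. In the first 4, capitals mark the E2F core on either strand, searched as TTCCCGC, with TTGGCGC and with TTCGCGC as its variants. In the last 3 they mark the CHR element, TTTGAA on either strand. Mcm5 held 3 matches to the E2F core, of which 2 overlap each other.
Uhrf1 (chr17:56303264-56303320, plus strand): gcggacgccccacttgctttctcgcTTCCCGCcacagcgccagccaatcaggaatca
Chaf1a (chr17:56040344-56040400, plus strand): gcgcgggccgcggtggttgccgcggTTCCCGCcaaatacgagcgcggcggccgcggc
Rpa2 (chr4:132768298-132768354, plus strand): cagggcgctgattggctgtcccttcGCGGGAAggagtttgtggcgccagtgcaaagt
Mcm5 (chr8:75109335-75109391, plus strand): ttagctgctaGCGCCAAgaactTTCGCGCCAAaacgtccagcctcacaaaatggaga
Cdc20 (chr4:118437344-118437386, minus strand): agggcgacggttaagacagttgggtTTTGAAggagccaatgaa
Cdk1 (chr10:69352913-69352952, minus strand): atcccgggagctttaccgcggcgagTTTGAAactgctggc
Mki67 (chr7:135716447-135716502, minus strand): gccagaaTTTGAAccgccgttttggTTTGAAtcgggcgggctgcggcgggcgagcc

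The E2F core was found in 28 of 46 promoters of the DNA replication list (60.9%), against 1469 of 9665 promoters of protein-coding members (15.2%) and 2652 of all 32851 promoters (8.07%), with windows from 250 bases before to 50 after the start. The CHR element was found in 30 of 40 promoters of the mitosis list (75%), against 11.9% of the promoters of protein-coding members and 17.9% of all promoters. A CCAAT box stood in 80% of the promoters of the mitosis list and 86.8% of those of the histone list, against 37.8% for protein-coding members. Its share was also 78.9% for cholesterol synthesis, 70% for antigen presentation, 60.9% for DNA replication, 60% for DNA repair and 53.8% for interferon response. It was 38.1% for the DNA methylation machinery, 33.3% for lysosome and autophagy and 22.9% for ribosome biogenesis. An interferon element was searched on both strands as a pair of GAAA units with any 2 bases between them. It was found in 5 of 20 promoters of the antigen presentation list, 3 of 13 of the interferon response list and 2.63% of those of protein-coding members. RefSeq promoters were found for 40 of 50 replication genes and 37 of 45 mitotic genes. A match describes the letters of a window and says nothing of a factor's binding.

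Uhrf1 itself (ENSMUSG00000001228, chr17:56303321-56323486 on the plus strand, GRCm38), with a baseMean of 1872, stood at −4.00 (SE 0.27, adjusted p = 1.81e-48) by the authors' deposited table, from which all fold changes, standard errors and adjusted p-values of the arms are taken. Its sign was used to name the arms and is a description. It was the lowest of the 9527 protein-coding members. In the authors' other deposited table, of Mutant and Control, its mean went from 118 TPM in Control to 20.4 TPM in Mutant, and the test estimate (the deposited statistic times its standard error) was −3.12 (SE 0.60, adjusted p = 4.01e-06). The second comparison sets tamoxifen against oil, and whether it shares libraries with the PT and PUT comparison is not given, so values from it are set beside those of the arms and nothing is read from their likeness.

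Most of these genes differed between the arms. By the authors' DESeq2 adjusted p below 0.05, 8635 of 12170 members differed (71%), 3509 higher (28.8%) and 5126 lower (42.1%) in the Uhrf1-low arm. Most differences were small: 6564 of the called genes changed by less than 2-fold, 855 (7.03%) were at least 2-fold higher and 1216 (9.99%) at least 2-fold lower. Over the whole table, 13112 genes were called (47.2%), 25.1% higher and 22.1% lower. Of 10765 members with a value in the Mutant and Control table, 14.5% were called higher and 16.4% lower there. The median fold change of the members was −0.12 and their median standard error 0.11. Subtraction of that median left 4294 called higher and 4336 lower, a balance that the subtraction itself sets. Centred on genes of like exonic length, 51.7% of calls were higher, against 40.6% as deposited. Members near the limit did not stand out: of 305 genes with a baseMean of 100 to 110, 168 were called with a median of −0.07, and of 337 non-members with a baseMean of 90 to 100, 180 were called with a median of −0.02. The table gives no value per library and no level per arm, so neither the spread within an arm nor an overlap between arms can be shown, and the depth per library is unknown. In cell populations such as these, fewer cells of a type and less RNA per cell cannot be told apart.

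**Figure D1:**
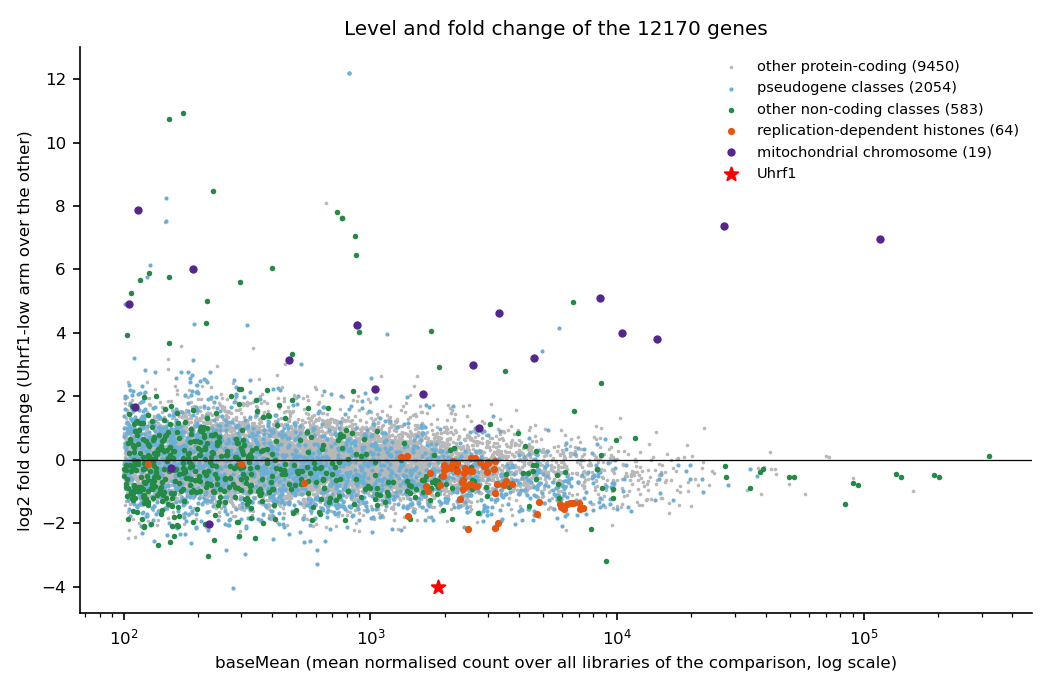
Each point is 1 of the 12170 members, with its baseMean on a log axis against its deposited log2 fold change, the Uhrf1-low arm over the other. Uhrf1 (star) lies at −4.00, the replication-dependent histones lie mostly below 0, and most of the 19 members of the mitochondrial chromosome lie far above 0.

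Fold changes followed the GC content of the transcript. Among protein-coding members, genes in the lowest quintile of exonic GC content (31.9 to 43.7%) had a median fold change of 0.43, with 62.1% called higher and 13.8% called lower. The quintile with the highest GC content (55.0 to 74.7%) had a median of −0.41, with 10.6% called higher and 59.7% called lower. The quintiles between them had medians of 0.06, −0.13 and −0.33, in order. Across the 9527 genes, Spearman's rho of GC content and fold change was −0.45, as a description over genes, which are not replicates. The distance between the outer quintiles, 0.84, was 0.89, 0.81 and 0.79 in genes of low, middle and high baseMean, and 0.64, 0.78 and 0.74 in short, middle and long genes. In the Mutant and Control table, the medians of the same quintiles lay between −0.07 and 0.02, and rho was 0.11 over 9458 genes.

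Fold changes rose with exonic length, from negative medians to a positive one in the longest quintile alone. From the shortest to the longest quintile of exonic length the medians were −0.36, −0.20, −0.12, −0.02 and 0.16. Length and GC content were themselves related across these genes (rho −0.37). Within genes of low, middle and high GC content the shortest quintile lay 0.20, 0.31 and 0.27 below the longest, against 0.51 without that division. Library preparation and the read aligner, HISAT2 for the Cre Control libraries and STAR for the others by the submitters' processing notes, may differ between the arms, but since the arms are not tied to groups their part in these trends was not tested. Lists below are given as deposited and centred on GC content, that is, after subtraction of the median of protein-coding members of like GC content. By that measure 31.6% of members were called higher and 34.4% lower. Counts of a list are to be read beside these shares, and beside 28.8% higher and 42.1% lower as deposited.

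**Figure D2:**
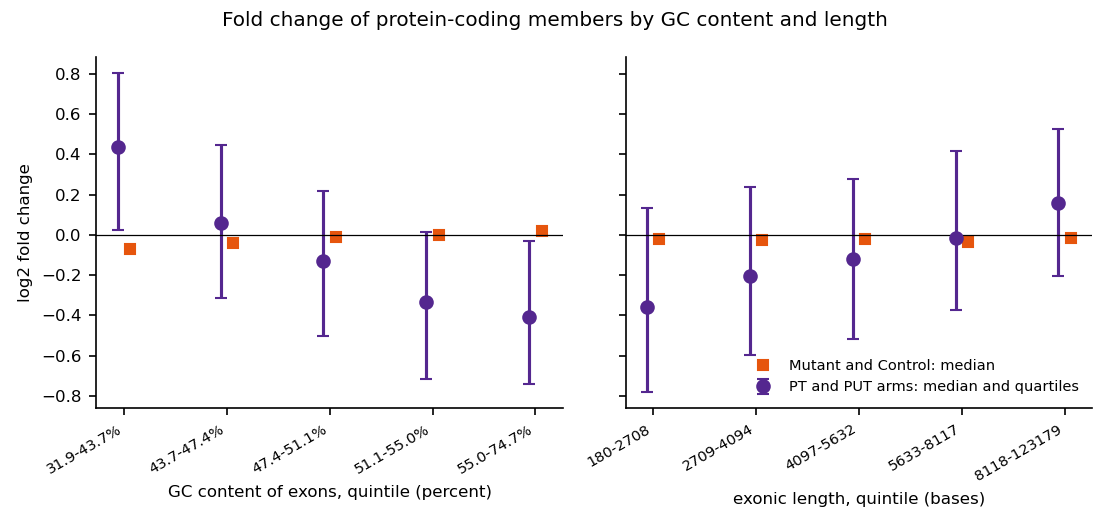
Median log2 fold change of protein-coding members in quintiles of exonic GC content (left, percent) and exonic length (right, bases): circles with bars give the median and quartiles for the PT and PUT arms, squares the median test estimate of Mutant over Control. The PT and PUT medians run from 0.43 down to −0.41 with GC content and from −0.36 up to 0.16 with length.

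Transcript classes differed in how their calls divided. Protein-coding members were called in 68.7%, higher in 29% and lower in 39.8%. Of 1914 processed pseudogenes, intronless copies of mRNAs, 530 were higher and 981 lower (median −0.28), and they held 14.4% of the summed baseMean. Of these and 73 transcribed processed pseudogenes, 351 carried the symbol of a protein-coding member (164 genes), and their median was −0.31. The genes they are named after had a median of −0.32, each gene counted once per pseudogene. Pair by pair, the pseudogene minus its gene had quartiles of −0.36 and 0.35. Reads of a processed pseudogene and its parent are hard to tell apart, so the class is uncertain. The most abundant 3 that passed were Gm13456 (−0.52, SE 0.05), Gm15459 (−0.28, SE 0.05) and Gm6170 (−0.80, SE 0.05). Gm15459 no longer passed once centred on GC content.

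Some entries may hold the same reads. In 152 pairs of overlapping members the baseMeans lay within 1% and the fold changes within 0.05 of each other, and 10 of those pairs were annotated on opposite strands. The antisense gene Gm20632 had a baseMean of 3753 and the histone gene H2ac19 on the other strand 3741, with fold changes of −0.76 and −0.77. Gm20633 (3555) and H2ac18 (3545) likewise stood at −0.65 and −0.66. Such pairs cannot be resolved, and whether the counting used strand is not given for this table. Of 194 members of the antisense class, 109 were lower and 32 higher (median −0.53), and 188 of them overlapped a protein-coding member on the other strand. The members they overlapped had a median of −0.24.

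Of the 80 members annotated as miRNA genes, 71 overlapped a member of another class, so the class may measure little mature miRNA. It had 50 lower and 22 higher members (median −0.63), and the genes that overlapped them had a median of −0.65. Its most abundant entries, Gm47299 (−0.53, SE 0.13) and Gm47295 (−0.44, SE 0.13), lay in Rn7s2 (−0.55, SE 0.15) and Rn7s1 (−0.46, SE 0.15), copies of the 7SL RNA of the signal recognition particle. All 4 lost their call when centred on GC content. Mir675 (−1.19, SE 0.08) lay in H19 (−1.38, SE 0.08), the long RNA that is its precursor. The 9 miRNA entries outside other members had a median of 3.33.

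Small nuclear RNAs, most of them parts of the spliceosome, were mostly higher: 9 of 10 members of the snRNA class were higher and none lower (median 1.03), among them Gm25360 (2.24, SE 0.43) and Gm24497 (1.40, SE 0.33). Copies of these genes are near-identical, so the locus of a read is uncertain. Of 20 snoRNAs, 9 were higher and 8 lower. Their median of 0.72 became −0.92 at a baseMean of at least 50 and −0.97 at a baseMean of at least 500, so no direction is given for them. Scarna10 and Gm28967 had the same baseMean (814) and fold change (−0.97, SE 0.09), and may be 1 locus under 2 names. Among other RNAs without a poly(A) tail, Rpph1, the RNA of ribonuclease P, was at −0.89 (SE 0.14), and the entry CT010467.1 of the rRNA class at 0.63 (SE 0.08).

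Long intergenic RNAs divided evenly, with 27 of 80 lincRNAs higher and 29 lower (median −0.01, but 0.15 at a baseMean of at least 50 and −0.28 at 500). The imprinted H19, at a baseMean of 83779, was lower (−1.38, SE 0.08, adjusted p = 9.8e-69). The nuclear RNA Malat1 was at −0.18 (SE 0.08, adjusted p = 0.0323), a call lost when all members' median was subtracted, and Neat1, the scaffold of paraspeckles, at −0.50 (SE 0.18, adjusted p = 0.0119), also lost in that way. Bc1, a neuronal RNA transcribed by RNA polymerase III, was among the lowest of all members at −3.02 (SE 0.18).

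**Figure D3:**
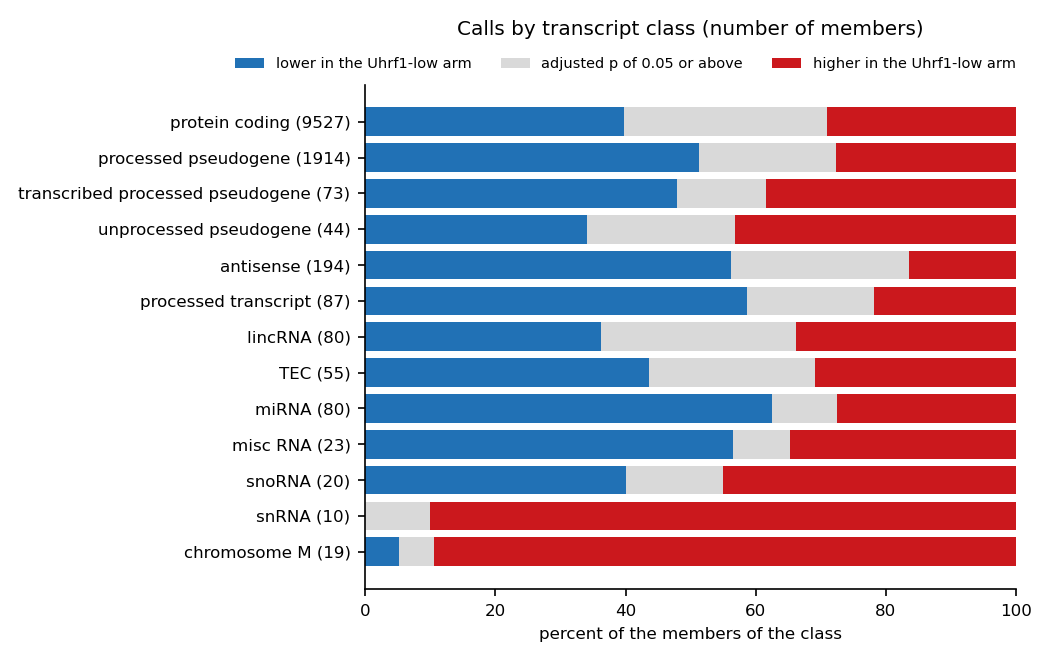
Share of the members of each transcript class called lower (blue), not called (grey) or called higher (red) in the Uhrf1-low arm, by the authors' adjusted p below 0.05. Bars sum to 100% and the number of members stands in brackets. The snRNA class and the mitochondrial chromosome were mostly higher, and the miRNA class was lower in 62.5%.

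Transcripts of the mitochondrial genome showed the largest differences among abundant RNAs. Of 19 members on that chromosome, 17 were higher and 1 lower (median 3.81). Among those with a baseMean of at least 1000 the 2 ribosomal RNAs stood highest, mt-Rnr1 at 7.37 (SE 0.08) with a baseMean of 27186 and mt-Rnr2 at 6.95 (SE 0.16) with 116015. The ATP synthase subunit mt-Atp6 (5.11, SE 0.17), the complex I subunit mt-Nd1 (4.61, SE 0.10), the complex IV subunits mt-Co3 (4.01, SE 0.06) and mt-Co1 (3.81, SE 0.26) and the complex III subunit mt-Cytb (2.97, SE 0.10) followed. Adjusted p-values of these 7 were between 2.03e-46 and a listed 0.

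The mitochondrial messages did not change in step, although nearly all are cut from 1 long transcript of the heavy strand. The spread among them ran from mt-Nd5 (1.01, SE 0.09), mt-Nd4l (1.66, SE 0.23) and mt-Nd4 (2.07, SE 0.10) to mt-Atp6. The short mt-Atp8, which overlaps mt-Atp6, did not pass (−0.26, SE 0.18, adjusted p = 0.235). mt-Nd6, the one message of the light strand, was lower (−2.02, SE 0.15, adjusted p = 2.69e-37). In the Mutant and Control table, 3 of the 13 messages were called lower and none higher, with estimates from −0.68 (mt-Co2, SE 0.53) to −0.19 (mt-Atp8, SE 0.21). The 2 tables thus differ in sign for most of these messages. Copies of mitochondrial sequence on chromosome 1 carried nearly the same values: Gm28437 had a baseMean of 10572 beside 10488 for mt-Co3, and Gm10925 8584 beside 8482 for mt-Atp6, so reads may have been counted for both. Members on the mitochondrial chromosome held 1.21% of the summed baseMean.

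Replication-dependent histone genes package new DNA in S phase, and their mRNAs end in a stem-loop in place of a poly(A) tail. Most were lower, but the histone families differed. Of 64 members, 52 were lower and none higher (median −0.71, against 42.1% lower and −0.12 over all members). Centred on GC content the median was −0.31, with 40 lower and 9 higher. The linker histones H1 (5 of 5 lower, median −1.70) and H4 (12 of 13, median −1.40) lay furthest down. H2A had 17 of 18 lower (median −0.78), H2B 13 of 16 (median −0.32, and 0.02 centred) and H3 5 of 12 (median −0.09, and 0.22 centred). Centred on GC content, H2B had 6 lower and 3 higher, and H3 had none lower and 6 higher. The list's furthest members were H4c14 (−2.17, SE 0.10), H1f1 (−2.13, SE 0.16), H1f5 (−1.98, SE 0.07) and H2aw (−1.76, SE 0.08). Histone genes of a family are near-identical and their reads may be shared among them. Mutant over Control, 41 of 62 members were lower and none higher, with a median of −0.62.

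Genes of DNA replication and the G1/S transition were mostly lower. Of 50 members, 35 were lower and 5 higher (median −0.55, and −0.55 centred on GC content). The list's largest changes were Chaf1a, a histone chaperone of the fork (−1.50, SE 0.08, adjusted p = 1.26e-86), the DNA ligase Lig1 (−1.44, SE 0.09, adjusted p = 3.43e-53) and Rpa2, a subunit of the single-strand binding protein (−1.41, SE 0.10, adjusted p = 2.11e-43), all lower. The Mcm2-7 helicase was lower in 5 of its 6 subunits: Mcm7 (−1.20, SE 0.08), Mcm5 (−1.14, SE 0.09), Mcm3 (−1.15, SE 0.09), Mcm2 (−1.09, SE 0.08) and Mcm6 (−0.87, SE 0.08). Mcm4 did not pass (−0.06, SE 0.09, adjusted p = 0.636). The sliding clamp Pcna was at −0.43 (SE 0.08, adjusted p = 2.47e-07).

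A few replication genes went the other way. The cyclin Ccne2 was higher (1.40, SE 0.12, adjusted p = 1.6e-30), while its relative Ccne1 was lower (−0.50, SE 0.10). The ribonucleotide reductase subunit Rrm2 was at 0.26 (SE 0.05) and Rrm1 at −0.78 (SE 0.06). Among genes of this list, fold change and GC content had a rho of −0.62 (50 genes). Mutant over Control, 43 of the 50 were lower and none higher, with a median of −0.44. There Ccne2 was at −0.68 (SE 0.09) and Rrm2 at −0.32 (SE 0.04), with signs opposite to those of the arms.

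Mitotic genes were lower in 27 of 45 members and higher in 8 (median −0.28, and −0.48 centred). The kinetochore gene Spc24 (−1.40, SE 0.10, adjusted p = 6.78e-44), the checkpoint kinase Bub1b (−1.16, SE 0.08, adjusted p = 4.91e-49), the activator of the anaphase-promoting complex Cdc20 (−1.14, SE 0.07, adjusted p = 1.09e-63) and Birc5 (−1.09, SE 0.09, adjusted p = 7.36e-33) changed most. Cyclin B1, Ccnb1, was at −0.25 (SE 0.07, adjusted p = 0.00131), a call lost when all members' median was subtracted. The kinase that it activates, Cdk1, was higher (0.92, SE 0.09, adjusted p = 8.45e-26), as was the proliferation marker Mki67 (0.32, SE 0.06, adjusted p = 1.18e-06). Mutant over Control, 37 of the 45 were lower and none higher, Cdk1 at −0.61 (SE 0.07) and Mki67 at −0.38 (SE 0.06). Promoters of Cdc20, Cdk1 and Mki67 all hold the CHR element printed above, and the genes did not share a direction between the arms.

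DNA repair genes had 23 of 36 members lower and 4 higher (median −0.37, and −0.43 centred). Timeless, a fork protection factor, was lower (−1.75, SE 0.11, adjusted p = 5.69e-59), and Clspn (−1.04, SE 0.10) and Parp1 (−1.04, SE 0.08) were also lower. Genes of the DNA methylation machinery moved apart from one another, with 9 of 18 lower and 6 higher (median −0.25, and −0.34 centred). Dnmt1, the maintenance enzyme, was at −0.78 (SE 0.07, adjusted p = 1.9e-30) and the de novo enzyme Dnmt3a at −0.93 (SE 0.11, adjusted p = 5.13e-17). Mbd3, of the NuRD complex, was at −1.25 (SE 0.07). The methyl-CpG binding zinc finger genes Zbtb33 (1.51, SE 0.12) and Zbtb38 (1.26, SE 0.06) were higher. Hells, the remodelling partner of DNA methylation, was at 0.03 (SE 0.09, adjusted p = 0.783), but at −0.62 and called lower when centred on its low GC content.

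Targets of p53, which arrest the cycle or start apoptosis after damage, were called in both directions. Of 31 members, 11 were higher (35.5%, against 28.8% of all members) and 5 lower (16.1%, against 42.1%). Centred on GC content, 12 were higher and 4 lower. The median was 0.03, and 0.15 centred. Trp53inp1 (1.56, SE 0.10, adjusted p = 2.84e-54) and Pmaip1, the apoptosis factor Noxa (1.21, SE 0.14, adjusted p = 4.19e-17), were higher, and Bax (−1.15, SE 0.07, adjusted p = 4.54e-59) and Sertad1 (−1.24, SE 0.11, adjusted p = 2.64e-30) lower. Cdkn1a, the CDK inhibitor p21, was at 0.27 (SE 0.08, adjusted p = 0.00223). Mdm2, which targets p53 for degradation, was at −0.25 (SE 0.07, adjusted p = 0.00214), a call lost when all members' median was subtracted. Mutant over Control, 23 of the 31 were higher and none lower (median 0.55), with Mdm2 at 1.04 (SE 0.14), Bax at 0.49 (SE 0.07) and Cdkn1a at 0.54 (SE 0.13). Mdm2 and Bax thus had opposite signs in the 2 tables. Of 4 other CDK inhibitor genes among the members, 1 was higher and 2 lower (centred, none and 1), and Cdkn1b (0.54, SE 0.13) and Cdkn2d (−0.43, SE 0.15) lost their calls when centred on GC content.

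Genes that build ribosomes were mostly lower. Of 34 members of the ribosome biogenesis and Myc list, 24 were lower and 2 higher (median −0.66, and −0.55 centred). The processing factors Rrp9 (−1.38, SE 0.09, adjusted p = 4.46e-48), Nhp2 (−1.27, SE 0.09, adjusted p = 1.62e-44), Nop2 (−1.27, SE 0.07, adjusted p = 1.2e-75) and Fbl, the methyltransferase of box C/D snoRNPs (−1.22, SE 0.07, adjusted p = 4.26e-67), changed most. Myc itself did not pass (−0.08, SE 0.11, adjusted p = 0.585), and the higher members were Mxd4 (1.12, SE 0.12) and Mga (0.53, SE 0.07), which encode partners of Max. Splicing factors were lower in 25 of 42 and higher in 8 (median −0.35, and −0.54 centred), led by the U1 component Snrnp70 (−1.40, SE 0.07), Hnrnpm (−1.36, SE 0.07), Srsf4 (−1.23, SE 0.08) and Sf3b2 (−1.16, SE 0.06).

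Proteasome subunits were lower in 22 of 32 and higher in 2 (median −0.51, and −0.41 centred). The core subunits Psmb7 (−1.04, SE 0.07), Psmb6 (−1.03, SE 0.07) and Psmb4 (−0.99, SE 0.06) and the ATPase Psmc3 (−1.03, SE 0.06) were lower, while the ATPase Psmc6 was higher (0.35, SE 0.07, adjusted p = 1.33e-06). The same 32 genes in the Mutant and Control table had a median of −0.03, with 2 lower and none higher. Translation initiation and elongation factors were lower in 40 of 66 (60.6%) and higher in 17 (25.8%), and centred in 31 and 12. Their median was −0.30, and −0.14 centred, with Eif6 at −1.52 (SE 0.08) and Eef1g at −1.42 (SE 0.06).

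Cytoplasmic ribosomal protein genes, whose products are made in equal numbers for each ribosome, had widely different fold changes. Of 80 members, 52 were lower and 20 higher, from Rpl11 (−2.07, SE 0.06, adjusted p = 4.54e-257) and Rps14 (−1.68, SE 0.06, adjusted p = 7.19e-150) to Rps27 (2.12, SE 0.07, adjusted p = 1.1e-175) and Rps29 (2.33, SE 0.08, adjusted p = 2.01e-188). The interquartile range of the list was 1.03, at a median standard error of 0.06, and 21 members differed by 2-fold or more. The interquartile range of the same genes in the Mutant and Control table was 0.08, at a median standard error of 0.05, and no estimate reached 2-fold. There Rpl11 was at −0.01 (SE 0.05), Rps14 at −0.00 (SE 0.05) and Rps29 at 0.04 (SE 0.05). GC content and fold change had a rho of −0.03 over the 80 genes, the interquartile range was 1.07 after centring on it, and rho with exonic length was −0.33. Many processed pseudogenes are copies of ribosomal protein genes, and how reads shared with them were counted is not given, so single values in this family are uncertain.

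**Figure D4:**
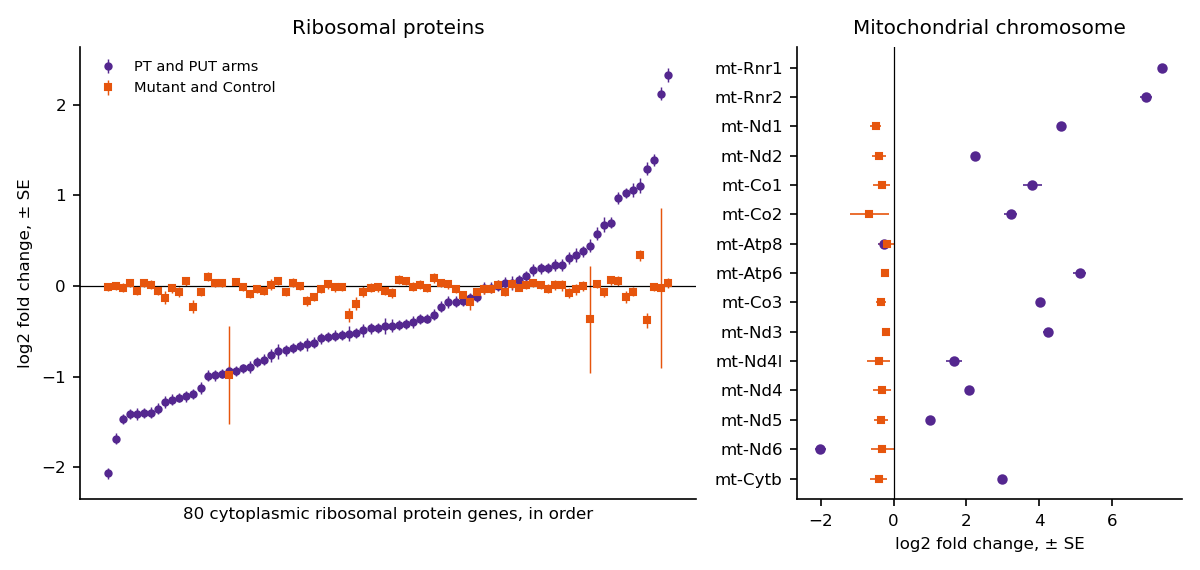
Left: the 80 cytoplasmic ribosomal protein genes in order of their log2 fold change between the PT and PUT arms (circles), with the test estimate of Mutant over Control for the same genes (squares). Right: the ribosomal RNAs and messages of the mitochondrial chromosome, with the same symbols; bars give the standard error. The circles run from −2.07 to 2.33 on the left, where the squares stay within 2-fold of 0.

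The ranges of other complexes were no wider than that of all members: 0.75 for the proteasome, 0.72 for nuclear-encoded subunits of oxidative phosphorylation and 0.87 for mitochondrial ribosomal proteins, against 0.89. In the Mutant and Control table the same ranges were 0.11, 0.19 and 0.16, against 0.42. Nuclear-encoded subunits of oxidative phosphorylation were lower in 51 of 77 and higher in 11 (median −0.45, and −0.25 centred), whereas most mitochondrially encoded subunits were higher. Within complex I alone, Ndufa12 was at 2.54 (SE 0.14, adjusted p = 9.87e-75) and Ndufa13 at −2.23 (SE 0.09, adjusted p = 6.95e-127), against −0.04 (SE 0.08) and 0.12 (SE 0.11) in the Mutant and Control table. Mitochondrial ribosomal proteins were lower in 43 of 77 and higher in 10 (median −0.35, and −0.14 centred), with Mrps26 at −1.78 (SE 0.11) and Mrpl42 at 1.53 (SE 0.14). Glycolysis and hypoxia genes were lower in 15 of 27 (55.6%, against 42.1% of all members) and higher in 8 (29.6%, against 28.8%). Centred on GC content, 12 were lower and 8 higher. Their median was −0.34, and −0.15 centred. The pyruvate kinase gene Pkm, with a baseMean of 57767, was lower (−1.09, SE 0.05, adjusted p = 1.48e-100), as were Tpi1 (−1.01, SE 0.06), Ldhb (−1.15, SE 0.13) and Pfkm (−0.92, SE 0.13).

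**Figure D5:**
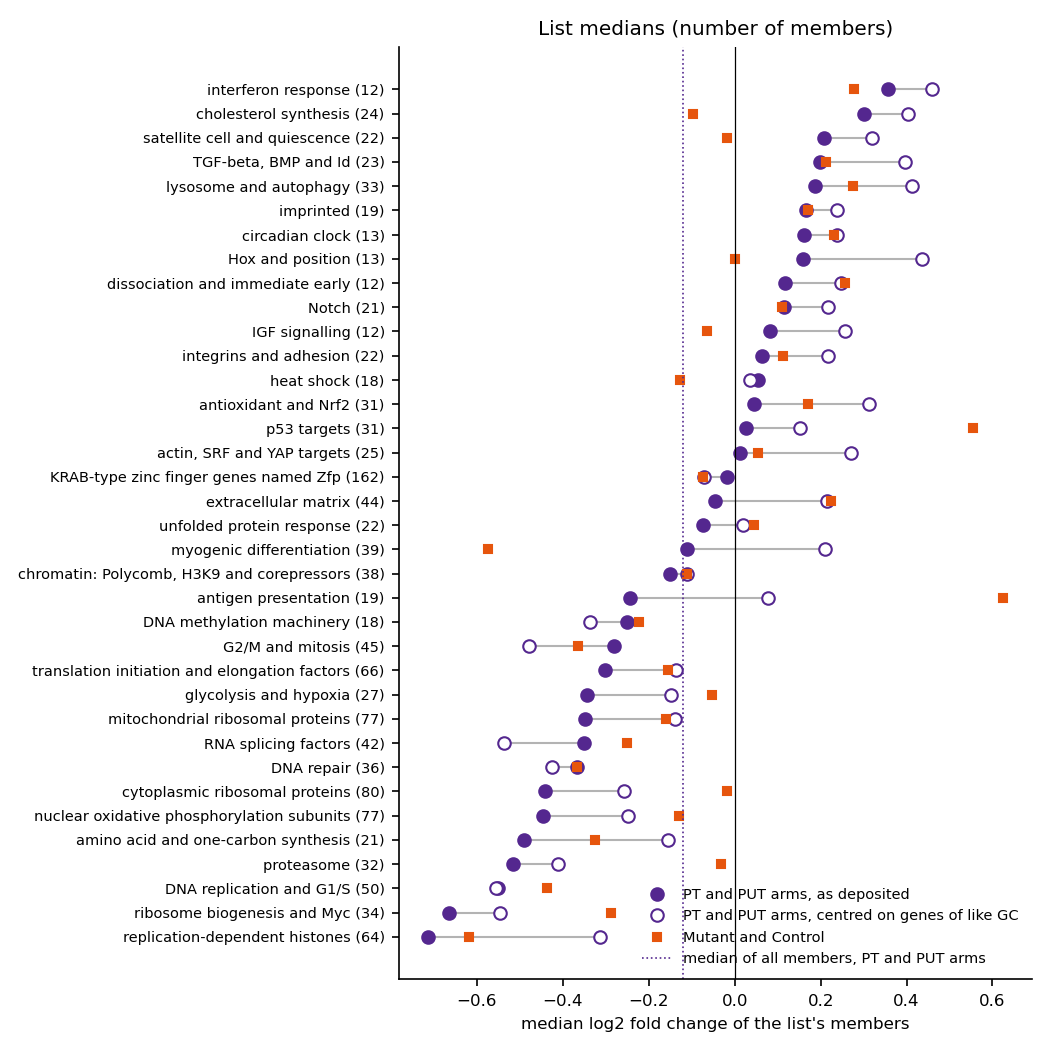
Median log2 fold change of the members of each list with at least 12 members: filled circles as deposited, open circles after subtraction of the median of protein-coding members of like GC content, squares the test estimate of Mutant over Control, dotted line the median of all members (−0.12). Histone, ribosome biogenesis, replication and proteasome lists lie lowest as deposited, and the antigen presentation and p53 squares lie far right of their circles.

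The cells carried myoblast RNA. All 11 genes of the satellite cell and myoblast marker list were members, with a summed baseMean of 67808, led by Des. Of these, 3 were higher and 6 lower (median −0.34), but 5 higher and 3 lower centred on GC content (median 0.02). Pax7, the satellite cell factor, was at −0.43 (SE 0.10, adjusted p = 0.000128) and lost its call when centred on GC content (−0.05). Myf5 was higher (0.83, SE 0.11, adjusted p = 1.77e-14). Myod1, the factor that commits to muscle, was at −0.15 (SE 0.06, adjusted p = 0.0229) as deposited and at 0.25 when centred, so its direction depends on the scale. Over the satellite cell and quiescence list, 11 of 22 members were higher and 9 lower (median 0.21), and 14 higher and 5 lower centred (median 0.32). Foxo1 (1.05, SE 0.11) and Megf10 (0.82, SE 0.07) were higher, and Itga7, a laminin receptor of muscle (−1.09, SE 0.07), was lower.

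Genes of muscle differentiation were noisy. Of 39 members, 6 were higher and 8 lower, and their median standard error was 0.42, against 0.11 over all members. Myogenin, Myog, did not pass (−0.34, SE 0.52, adjusted p = 0.635). The troponins Tnnc1 (−1.89, SE 0.49, adjusted p = 0.000427), Tnni2 (−1.70, SE 0.30, adjusted p = 7.84e-08) and Tnnt2 (−1.40, SE 0.20, adjusted p = 4.13e-11) were lower, and Klhl41 (1.80, SE 0.48, adjusted p = 0.000643), the titin gene Ttn (1.00, SE 0.21) and the dystrophin gene Dmd (1.27, SE 0.22) higher. The median of −0.11 changed sign when centred on all members (0.01) or on GC content (0.21), so no direction is given. Notch pathway genes had 6 higher and 7 lower of 21 as deposited, but 9 higher and 2 lower centred, with Maml2 at 1.18 (SE 0.20) and the glycosyltransferase Lfng at −1.04 (SE 0.15).

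Markers of other cell types were few among the members. Endothelial, adipocyte and erythroid lists had none. Of 17 macrophage and leukocyte markers, 9 had no entry in the table and 2 were members, Laptm5 (2.00, SE 0.12, adjusted p = 1.37e-60) and Csf1r (−0.46, SE 0.16, adjusted p = 0.00861), the latter no longer called when centred on all members. Of 13 fibroblast markers, 2 were members, among them Gsn (−0.21, SE 0.09, adjusted p = 0.0371), a call lost when centred on all members. Of 8 smooth muscle and pericyte markers, 3 were members: Cspg4 (0.86, SE 0.10), Pdgfrb (0.98, SE 0.26) and Notch3 (−0.34, SE 0.07). Notch3 was no longer called lower when centred on GC content. The tenocyte marker Scx was lower (−1.24, SE 0.09). In the whole table, 6 of 11 endothelial markers were called higher and none lower, the most abundant being Vwf at a baseMean of 44.6. Smooth muscle and pericyte markers had 6 of 8 higher and 1 lower (median 0.92), macrophage and leukocyte markers 3 of 8 and 1 (median 1.12), and fibroblast markers 3 of 10 and 1 (median 0.74), against a median of 0.14 over the whole table. The 2 Schwann cell markers among the members did not pass. The part of such cells in other results was not tested. Genes that tissue dissociation induces had 4 of 12 members higher and 4 lower (6 higher and 2 lower centred).

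Antigen presentation differed from gene to gene. Of 19 members, 9 were lower (47.4%, against 42.1% of all members) and 3 higher (15.8%, against 28.8%). Centred on GC content, 7 were lower and 6 higher. The median was −0.24 as deposited and 0.08 centred, so the sign depends on the scale. B2m, the shared light chain of class I molecules, was higher (2.29, SE 0.12, adjusted p = 1.33e-80). Heavy chain genes were at −0.28 (SE 0.09) for H2-K1 and −0.24 (SE 0.08) for H2-D1, and paralogous heavy chains may share reads. The immunoproteasome genes Psmb10 (−1.78, SE 0.18, adjusted p = 5.49e-23) and Psme2 (−1.54, SE 0.12, adjusted p = 3.6e-39) were lower, and the peptide transporter Tap1 did not pass (−0.00, SE 0.11, adjusted p = 0.98) but was called higher when centred (0.35). Mutant over Control, 13 of the 19 were higher and none lower (median 0.63), with Tap1 at 1.36 (SE 0.12).

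Only 12 of 49 interferon response genes were members, 6 higher and 4 lower (median 0.36, and 0.46 centred, but −0.08 at a baseMean of at least 50). The membrane proteins Ifitm2 (1.73, SE 0.14, adjusted p = 1.97e-34) and Ifitm3 (0.99, SE 0.12, adjusted p = 2.32e-15) were higher and Ifi35 lower (−1.19, SE 0.20, adjusted p = 1.96e-08). Isg15, a ubiquitin-like product of the response, was no member, with a baseMean of 14.9, and did not pass (−0.47, SE 0.54, adjusted p = 0.511), whereas its Mutant and Control estimate was 2.51 (SE 0.67). Among 9 NF-kB and inflammation genes, Cxcl12 was higher (0.29, SE 0.11) and Nfkb2 lower (−0.44, SE 0.09). Centred, 5 of the 9 were higher and none lower, Nfkb2 not among the called.

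Matrix genes had 16 of 44 higher and 16 lower as deposited (median −0.04), but 23 higher and 11 lower centred (median 0.22). The collagen VI chain Col6a3 (2.05, SE 0.26, adjusted p = 5.38e-14), fibronectin, Fn1 (1.75, SE 0.20, adjusted p = 3.82e-18), and the crosslinking enzyme Lox (1.71, SE 0.30, adjusted p = 7.13e-08) were higher, while collagen III, Col3a1, was lower (−1.49, SE 0.08, adjusted p = 2.52e-84). Col1a1 did not pass (0.18, SE 0.22, adjusted p = 0.546), and was called higher when centred on GC content (0.57). Mutant over Control, Fn1 was at 1.32 (SE 0.25) and Col3a1 at −0.03 (SE 0.13). Genes of TGF-beta and BMP signalling were higher in 10 of 23 and lower in 5 (median 0.20, and 0.40 centred). Among them were the ligand Tgfb2 (1.21, SE 0.13), the receptors Bmpr2 (1.05, SE 0.07) and Bmpr1a (0.82, SE 0.08), and Id2, an inhibitor of basic helix-loop-helix factors (1.71, SE 0.08, adjusted p = 9.41e-100). Actin, SRF and YAP target genes had 9 higher and 8 lower of 25 as deposited, but 13 higher and 6 lower centred. Integrins and adhesion genes had 8 and 8 of 22 as deposited, but 11 higher and 2 lower centred. IGF signalling genes had 3 higher and 2 lower of 12 (5 higher and 1 lower centred). Their binding proteins divided, with Igfbp5 (1.73, SE 0.25, adjusted p = 6.84e-11) and Igfbp4 (1.42, SE 0.15, adjusted p = 3e-21) higher and Igfbp3 lower (−1.15, SE 0.12, adjusted p = 1.43e-19). Igf2 did not pass (−0.50, SE 0.25, adjusted p = 0.0839). The protease inhibitor Serpine2 was at 0.59 (SE 0.07), against 2.11 (SE 0.29) Mutant over Control.

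Lysosome and autophagy genes were higher in 16 of 33 (48.5%, against 28.8% of all members) and lower in 6 (median 0.19, and 0.41 centred). The membrane proteins Laptm4a (1.80, SE 0.08, adjusted p = 4.69e-103) and Lamp2 (1.28, SE 0.09, adjusted p = 6.24e-47) and the peptidase Tpp1 (0.99, SE 0.12, adjusted p = 7.28e-17) were higher. Becn1, which starts autophagosome formation, was lower (−1.09, SE 0.08, adjusted p = 2.48e-41). Of the 33 in the Mutant and Control comparison, 19 were higher and none lower (median 0.28). Cholesterol synthesis genes were higher in 12 of 24 and lower in 6 (median 0.30, and 0.40 centred). The highest were the synthesis enzymes Msmo1 (1.20, SE 0.16), Sc5d (1.00, SE 0.16) and Idi1 (0.96, SE 0.11), and Pmvk, of the mevalonate pathway, was lowest (−1.99, SE 0.21, adjusted p = 2.73e-20). Their Mutant and Control median was −0.10.

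Amino acid and one-carbon synthesis genes were lower in 14 of 21 and higher in 3, with a median of −0.49 that shrank to −0.16 when centred on GC content. Phgdh, the first enzyme of serine synthesis, was lowest (−1.48, SE 0.07, adjusted p = 5.03e-101), and the cystine transporter Slc7a11 (0.99, SE 0.08, adjusted p = 1.26e-36) and Sesn3 (1.21, SE 0.10, adjusted p = 2.43e-32) were higher. Genes of the unfolded protein response had 8 higher and 7 lower of 22 (8 higher and 6 lower centred), from Creld2 (−1.33, SE 0.10, adjusted p = 2.67e-37) to the co-chaperone Dnajb9 (2.32, SE 0.17, adjusted p = 1.04e-41). Antioxidant genes had 13 higher and 11 lower of 31 as deposited, but 17 higher and 7 lower centred. The metallothionein Mt2 (1.77, SE 0.16, adjusted p = 1.12e-27), plasma glutathione peroxidase Gpx3 (1.43, SE 0.23, adjusted p = 3.55e-09) and catalase, Cat (1.26, SE 0.09, adjusted p = 2.77e-39), were higher, and Gstp1 was lower (−1.14, SE 0.06, adjusted p = 3.73e-84). Heat shock genes had 5 higher and 6 lower of 18 (7 higher and 5 lower centred), the called ones between −0.42 (Hspd1) and 0.59 (Bag3).

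Core clock genes were higher in 6 of 13 and lower in 1 (median 0.16, and 0.24 centred). The activators Arntl (1.04, SE 0.16, adjusted p = 3.39e-10) and Clock (1.02, SE 0.07, adjusted p = 1.55e-42) and the receptor Rora (1.40, SE 0.18, adjusted p = 9.78e-14) were higher, while Per1 (−0.17, SE 0.09, adjusted p = 0.125) and Per2 (−0.22, SE 0.18, adjusted p = 0.313) did not pass. Positional genes were higher in 5 of 13 and lower in none (centred, 9 and none), among them Hoxc6 (0.61, SE 0.18, adjusted p = 0.00184) and Hoxa10 (0.43, SE 0.13, adjusted p = 0.00339). Imprinted genes had 8 higher and 5 lower of 19, and the same numbers centred. Mest (1.46, SE 0.20, adjusted p = 2.61e-12) and Plagl1 (0.96, SE 0.09, adjusted p = 3.77e-24), expressed from the paternal copy, and the antisense RNA Kcnq1ot1 (0.94, SE 0.10, adjusted p = 4.5e-20) were higher, and H19, expressed from the maternal copy, was lower as given above. Germline genes, a class often silenced by DNA methylation, had no member, although 21 of 36 had an entry in the table.

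Polycomb, H3K9 methylation and corepressor genes divided, with 11 of 38 higher and 13 lower (median −0.15, and −0.11 centred). These are 28.9% and 34.2%, against 28.8% and 42.1% of all members. Tasor, of the HUSH complex (1.15, SE 0.13, adjusted p = 1.51e-18), Rnf2 (1.02, SE 0.11, adjusted p = 1.23e-18) and Suv39h2 (1.01, SE 0.17, adjusted p = 8.6e-09) were higher and Cbx7 was lower (−1.12, SE 0.19, adjusted p = 2.23e-08). The 162 members whose symbols start with Zfp, most of them zinc finger genes, had 43 higher and 52 lower, and 42 and 40 centred on GC content. Their median was −0.02, but −0.07 centred on GC content and 0.10 centred on all members. Among them rho with GC content was −0.64. The 4 with the largest change, Zfp770 (1.67, SE 0.15), Zfp800 (1.61, SE 0.16), Zfp738 (1.58, SE 0.17) and Zfp97 (1.56, SE 0.21), were all higher. Of 15 listed genes of the protocadherin clusters, a list without the Pcdhgb genes, 14 did not pass and lay between 0.09 (Pcdhgc4) and 0.12 (Pcdhga11). Pcdhgc3 was lower (−0.29, SE 0.06), a call lost when centred on GC content. On that scale 14 of the 15 were called higher and none lower (median 0.43), so the result depends on the scale. These genes share their last exons, and how reads in those were counted is not given.

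The largest positive fold changes belonged to pseudogenes and small RNA genes. The processed pseudogenes Gm12896 (at 12.20, SE 1.20, baseMean 818) and Gm12895 (at 12.20, SE 1.20, baseMean 818) held nearly the same values and may share reads. Gm23388 (10.93, SE 1.19), Gm24812 (10.74, SE 1.19), the ribonuclease P RNA copy Rprl3 (8.47, SE 0.73) and Gm15604 (8.25, SE 0.85) followed. Mutant over Control, Gm12896 was at 0.57 (SE 0.16) and Gm12895 at 0.81 (SE 0.22). Their means in Control were 11444 and 17982 TPM. A fitted fold change of a gene at or near 0 in 1 arm is no bound, and the levels in each arm are not given. At the other end stood the pseudogenes Gm5648 (−4.03, SE 0.19), Gm6023 (−3.28, SE 0.12) and Gm13252 (−2.97, SE 0.18) and Gm27483 of the miscellaneous RNA class (at −3.17, SE 0.14, baseMean 8984). Among abundant protein-coding genes the lowest after Uhrf1 was Ptms, which encodes parathymosin (−2.21, SE 0.06, adjusted p = 9.47e-274), with 0.25 (SE 0.06) Mutant over Control.

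Several protein-coding genes with large differences were picked after their values were seen. The chemokine receptor gene Ccr4 was at 7.51 (SE 0.66, adjusted p = 2.3e-28), the adhesion gene Selp at 3.03 (SE 0.15, adjusted p = 9.98e-89), the histone-modifying Padi2 at 3.57 (SE 0.52, adjusted p = 3.29e-11), Capn12 at 3.51 (SE 0.16, adjusted p = 3.36e-99) and the deadenylase gene Noct at 2.65 (SE 0.11, adjusted p = 7.86e-123). Scube1 was at 2.87 (SE 0.41, adjusted p = 1.14e-11). Of these, Padi2 (2.48, SE 0.79) and Scube1 (2.64, SE 0.52) were also called higher in the Mutant and Control table. On the low side were Col27a1 (−2.25, SE 0.28, adjusted p = 2.23e-14), Lsm4 (−2.13, SE 0.09, adjusted p = 9.5e-126) and the replication inhibitor Gmnn (−2.06, SE 0.12, adjusted p = 2.79e-68).

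RNAs of the sex chromosomes differed as well. Xist, the RNA that coats the inactive X, had a baseMean of 88.1, just below the limit for members, and a fold change of 9.95 (SE 1.19, adjusted p = 8.46e-16), and its antisense gene Tsix, at a baseMean of 13.3, stood at 7.22 (SE 1.28, adjusted p = 8.25e-08). The 2 overlap and their reads may not be separated. Of 8 members on the Y chromosome, 2 were higher and 3 lower as deposited (median −0.15), and none higher and 3 lower centred on GC content. Ddx3y (−0.11, SE 0.09, adjusted p = 0.314) and Kdm5d (−0.18, SE 0.12, adjusted p = 0.192) did not pass as deposited. The 2 higher members were Eif2s3y (1.01, SE 0.17, adjusted p = 7.22e-09) and Uty (0.89, SE 0.14, adjusted p = 1.47e-09), calls that the centring on GC content took away. Protein-coding members of the X chromosome had a median of 0.18, with 122 of 286 higher and 80 lower, against −0.10 on the autosomes. Their median was 0.11 after centring, and the labels do not give the sex of the animals.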

How the data were processed

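RNA-seq of mouse satellite cells was analysed from 2 comparison tables of genes that the authors deposited. For the PT and PUT arms, the authors' table gives, per the file headers, a mean signal (baseMean, normalised counts averaged over libraries), a log2 fold change, its standard error, a score (the test statistic) and a p-value with its adjusted p. For Mutant and Control the authors deposited mean TPM values and the same test columns, per the file headers. Those headers are shifted against the values, so columns were assigned by position after allowing for the shift. The test estimate of that comparison was taken as statistic times standard error. The submitters' processing notes list Trim Galore 0.6.6, featureCounts 2.0.1, DESeq2 and STAR 2.7.6a for Control and Mutant libraries and HISAT2 2.2.1 for Cre Control libraries. No values per library were given for genes, so nothing was refitted, and depth per library is unknown.

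Members were genes with a baseMean of at least 100. A gene was called at an adjusted p below 0.05, as deposited; recomputed Benjamini-Hochberg values over the table were the same within 1.33e-15. Classes, positions, exonic GC content and exonic length came from GENCODE M21 (GRCm38), which held 12157 of the members. For GC centring, the median of protein-coding members in the same of 20 bins was subtracted. A two-sided normal p from the deposited standard error was then adjusted over all genes of the comparison with an entry, members or not. This was tested on simulated data. Genes named are Uhrf1, the 6 highest and 6 lowest called members, the same with a baseMean of at least 1000, up to 4 called members of each list by size of change, up to 3 of each other class by baseMean, and 22 fixed genes; the other genes named were chosen after their values were seen. The members and lists were chosen with earlier results of these data known. Promoter sequences were taken from RefSeq (GRCm38.p6), 250 bases before to 50 after the start. Python 3.11.15, pandas 2.3.3, scipy 1.17.1 and matplotlib 3.10.9 were used. Alternatives were other limits of baseMean, p and fold, adjustment over members alone, and centring on all members, GC content or length.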

Additional observations from a re-analysis of the deposited data

How the results depend on the processing

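The call of 8635 genes (3509 higher, 5126 lower) kept within 1.5 times under a threshold of 0.01, adjustment over members alone, protein-coding genes alone, a baseMean of at least 50 and every centring tried. It was 2071 (855 and 1216) with a fold change of at least 2, 4701 (1669 and 3032) at a baseMean of at least 500, and 13112 (6984 higher) with no minimum, since these settings change how many genes can be called. The processed pseudogene median went to −0.51 at a baseMean of at least 500, the lincRNA median to 0.15 at 50 and −0.28 at 500, and the snoRNA median reversed to −0.92 at 50 and −0.97 at 500; the cause was not tested. Deciles in place of quintiles gave a distance of 0.96 for GC content and −0.65 for length. Of 268 named genes, centring on GC content left 236 on the same side of the threshold, took the call of 26, gave one to 5 and reversed Myod1 to 0.25. Centring on all members took the call of 10. List medians were below 0 in 21 of 40 lists as deposited and in 16 or 17 under the centrings. No paired analysis was possible because neither table gives values per library, and for the same reason no library could be left out. The number of libraries per arm and their depth set a limit on the precision that cannot be stated here.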
